A study of Mus musculus with 8 samples.

Results

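The genes that write and erase DNA methylation and the core genes of Polycomb repressive complex 2 (PRC2) were followed in splenic B cells of diseased transgenic mice. The study describes these cells as CLL-like. The set holds 10 gene symbols, picked by name from the 24902 symbols of the count matrix. They are the DNA methyltransferases Dnmt1, Dnmt3a and Dnmt3b, the 5-methylcytosine oxidases Tet1, Tet2 and Tet3, the histone methyltransferases Ezh1 and Ezh2, and the PRC2 subunits Eed and Suz12. All 10 passed the filter on low counts that left 13173 genes for testing.

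The study asked how overexpression of the arginine methyltransferase PRMT5 shapes CLL and its transformation to an aggressive lymphoma. The matrix used here holds bulk RNA-seq of the spleens of 8 diseased mice at early removal criteria (ERC), the point at which an ill animal had to be euthanized. B cells were enriched with a pan-B isolation kit, and cDNA was preamplified from a low input of RNA. The labels give the C57BL/6N strain for all mice and no age, while the methods name C57BL/6 J as the background of the Eµ-TCL1 mice used for the cross. The 4 Eµ-PRMT5 mice carried human PRMT5 under an immunoglobulin heavy-chain promoter and the Eµ enhancer, which drive it in B cells. The lone Eµ-TCL1 mouse of the matrix, where the study describes more of this genotype, carried the human TCL1 oncogene under B cell control, an established model of CLL. The 3 Eµ-PRMT5/TCL1 mice, called double transgenics from here on, carried both transgenes, where the study used founder line L25 for its cross and also bred crosses from other founder lines. The titles of these 3 libraries carry identifiers, but do not say whether these name a founder line. WT mice were not analysed here. Because the PRMT5 transgene is human, counts on the mouse gene Prmt5 do not check the genotype labels.

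DNA methyltransferases place methyl groups on cytosines, mostly in CpG dinucleotides, and Dnmt1 restores these marks after each round of replication. Tet enzymes oxidize the methyl group and so open a path to its removal, and loss of TET2 or DNMT3A is a recurrent lesion of blood cancers. PRC2 methylates lysine 27 of histone H3 and keeps target genes silent, with Ezh2 as the main catalytic subunit of dividing cells such as germinal center B cells and Ezh1 more typical of resting cells.

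Counts on genes totalled 5484833, 6471716, 3987989 and 10252426 for Eµ-PRMT5 animals 1 to 4. They totalled 6232700, 7290268 and 6686631 for double transgenics 1 to 3, and 3356297 for the Eµ-TCL1 animal. Levels are given as CPM, counts scaled to a common library size with TMM factors, which assume that most genes do not differ. The labels gave no batch, and p-values measured only the spread between these samples. Tests against the lone Eµ-TCL1 animal assumed that it varied as the replicated groups did, and asked whether it lay outside their spread.

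Cell type markers were read first, since some libraries stood apart in them. The 6 B cell markers, led by Cd79a, summed to 5515, 3812, 6593 and 1871 CPM in Eµ-PRMT5 animals 1 to 4, 3417, 5049 and 8450.3 CPM in double transgenics 1 to 3 and 4729.7 CPM in the Eµ-TCL1 animal. They were present in each library and lowest in Eµ-PRMT5 animal 4. All 8 neutrophil lineage markers, led by Ngp, had values and summed to 2654, 2095, 421 and 5219 CPM for Eµ-PRMT5, 8997, 5056 and 642 CPM for the double transgenics and 587 CPM for Eµ-TCL1. RNA of the granulocyte lineage was thus present after B cell enrichment, and varied widely within both replicated groups. Of 6 erythroid markers 4 had a value in each library, led by Hba-a1, with Klf1 at 0 in Eµ-PRMT5 animal 1. The 4 summed to 65.1, 16.8, 41.5 and 292 CPM for Eµ-PRMT5. They summed to 225, 66.5 and 55.8 CPM for the double transgenics and 23.0 CPM for Eµ-TCL1. The sum was highest in Eµ-PRMT5 animal 4 and then in double transgenic 1. That order rested on Slc4a1 (71.7 against 13.9 CPM) and Klf1 (32.9 against 5.57 CPM). Hba-a1 (142 against 159 CPM) and Hbb-bs (45.3 against 46.7 CPM) were higher in double transgenic 1. Of 6 macrophage markers 3 had a value in each library, led by Cd68, and these summed to 133, 184, 274 and 397 CPM, then 702, 436 and 274 CPM, then 135 CPM. They were highest in double transgenics 1 and 2, followed by Eµ-PRMT5 animal 4. The other 3, C1qa, C1qb and C1qc, lack values in Eµ-PRMT5 animal 1, and with NA counted as 0 all 6 summed to 876 CPM in Eµ-PRMT5 animal 4 and 753 CPM in double transgenic 1. Sums over markers with a value in each library were chosen after seeing the data, and are the ones given.

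Eµ-PRMT5 animal 3 was the other library that stood apart. The titles of Eµ-PRMT5 libraries 3 and 4 carry numbers that the paper also uses for mice in its histology. Under the number of animal 3 it describes anaplastic large lymphocytes with bland histiocytes, and under that of animal 4 sheets of small lymphocytes. The labels do not state that these are the same animals, and the part of histology in the levels was not tested. Of 6 T cell markers 4 had a value in each library, led by Cd3g, and these summed to 54.4, 54.5, 296 and 106 CPM for Eµ-PRMT5, 87.5, 47.8 and 55.8 CPM for the double transgenics and 81.1 CPM for Eµ-TCL1. Of 4 NK cell markers 2 had a value in each library, led by Prf1, and these summed to 20.1, 22.01, 77.1 and 6.69 CPM, then 8.03, 9.15 and 10.1 CPM, then 21.6 CPM. Both lists were highest in Eµ-PRMT5 animal 3. Cd3g itself was highest in Eµ-PRMT5 animal 4 (95.1 CPM, against 71.1 CPM in animal 3). The largest part of the T cell sum of animal 3 was Cd8b1 (125 CPM). The 3 plasma cell markers, led by Jchain, summed to 5509, 2018, 1386 and 548 CPM, then 492, 356 and 2649.8 CPM, then 1677 CPM, and were highest in Eµ-PRMT5 animal 1. The part of other cells in the levels of the methylation and Polycomb genes was not tested. In bulk libraries, fewer cells of a type and less RNA per cell cannot be told apart.

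**Figure D1:**
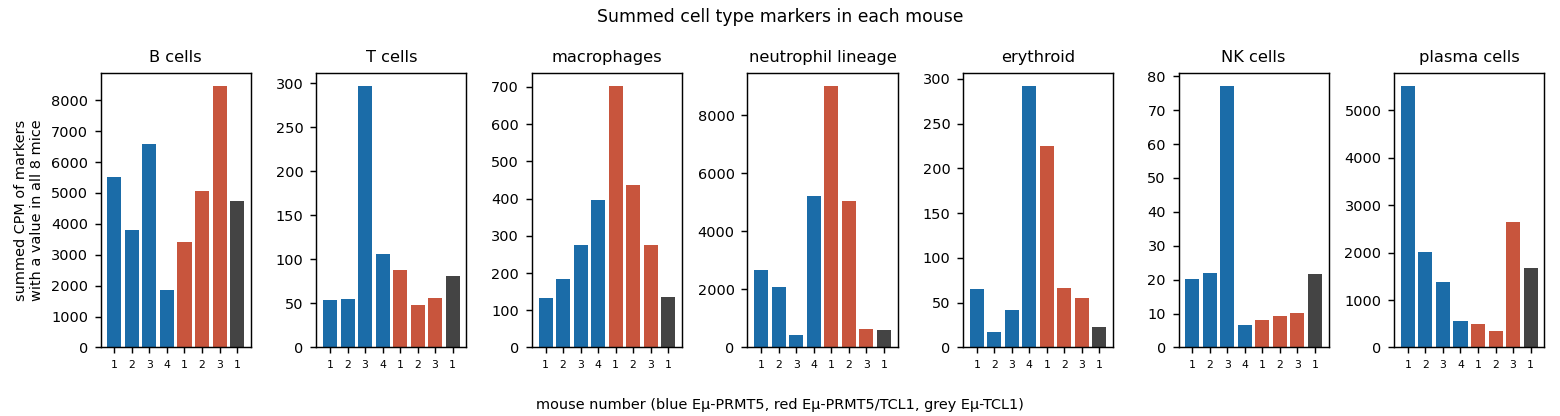
Summed TMM-normalized CPM of the marker genes of 7 cell types in each of the 8 mice, over markers with a value in all 8, with bars from 0 and a separate axis for each cell type; colors give the genotype. Eµ-PRMT5 animal 4 had the lowest B cell sum (1871 CPM) and the highest erythroid sum (292 CPM).

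Compared per kb of merged exons, Dnmt1 had the highest mean level over the 8 mice, at 22.2 CPM per kb, above 79.0% of tested genes, and Tet1 the lowest, at 2.01 CPM per kb, above 18.5%. In between were Eed at 18.5, Ezh1 at 15.9, Suz12 at 11.3, Ezh2 at 10.1, Dnmt3b at 6.26, Dnmt3a at 6.02, Tet2 at 4.63 and Tet3 at 2.83 CPM per kb. On this scale, the means of the maintenance methyltransferase and the PRC2 genes lay above those of the de novo methyltransferases and the oxidases. Most neighbours in the order did not differ beyond their spread. Only Tet2 was above its lower neighbour, Tet3, in all 8 mice. Ezh2 was above Dnmt3b in 7 mice, and Dnmt1 above Eed, Ezh1 above Suz12 and Tet3 above Tet1 in 6 each. Suz12 was above Ezh2, Dnmt3b above Dnmt3a and Dnmt3a above Tet2 in 5, and Eed above Ezh1 in 4. Merged exons join every annotated isoform, so a gene with long alternative ends gets a lower value per kb.

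**Figure D2:**
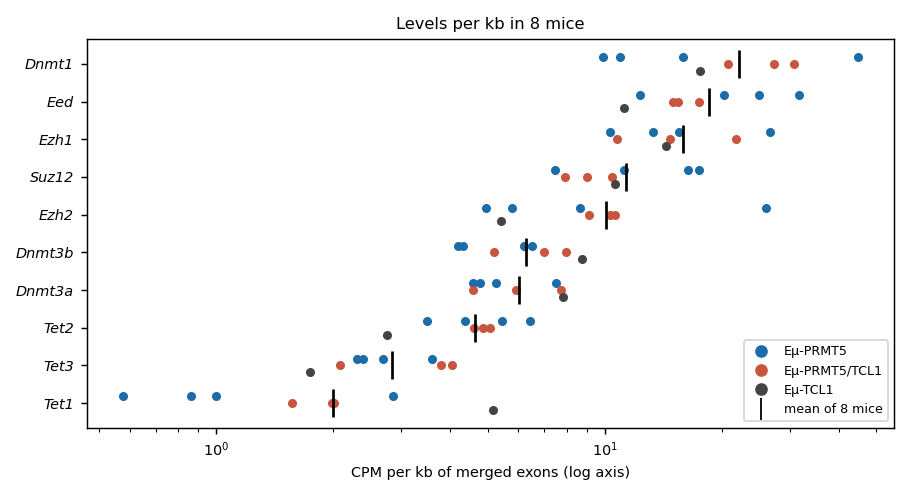
Level of each gene in CPM per kb of merged exons (log axis) in each of the 8 mice, with genes ordered by their mean, drawn as a black bar. Dnmt1 had the highest mean (22.2 CPM per kb) and Tet1 the lowest (2.01 CPM per kb).

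Dnmt1 (chr9:20907209-20959888, GRCm38), the maintenance methyltransferase, measured 72.9, 80.6, 118 and 330.3 CPM in Eµ-PRMT5 animals 1 to 4, 201, 153 and 227 CPM in double transgenics 1 to 3, and 129.8 CPM in the Eµ-TCL1 animal. Eµ-PRMT5 animal 4 was the highest of the 8 and the other 3 of its genotype were the lowest, so that the double transgenics lay between them and the groups overlapped. The means were 150.4 ± 122 CPM (SD, n = 4) for Eµ-PRMT5 and 194 ± 37.3 CPM (SD, n = 3) for the double transgenics. The log2 fold change of double transgenics over Eµ-PRMT5 was 0.36 (standard error 0.50, 95% interval -0.72 to 1.45, edgeR adjusted p = 1.00). This value rested on 1 library. Eµ-PRMT5 animals 1 to 3 averaged 90.4 ± 23.9 CPM (SD, n = 3), and animal 4 was at 3.66 times that mean. Without Eµ-PRMT5 animal 4, a mouse singled out after seeing the data, all 3 double transgenics were above the remaining Eµ-PRMT5 animals, with a log2 fold change of 1.10 (standard error 0.33, edgeR adjusted p = 0.683). The adjusted p ranged from 0.315 to 1.00 over all alternatives, so Dnmt1 did not pass in any of them.

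Uhrf1 (chr17:56303321-56323486), the partner that guides Dnmt1 to newly replicated DNA, measured 51.3, 50.03, 96.7 and 353 CPM for Eµ-PRMT5, 192, 143 and 275 CPM for the double transgenics, and 154 CPM for Eµ-TCL1. The order of mice was close to that of Dnmt1, with Eµ-PRMT5 animal 4 highest and Eµ-PRMT5 animals 1 and 2 lowest. Over the 8 mice, log2 CPM of the pair had a Pearson r of 0.977 (exact permutation p = 9.92e-05, 0.00149 adjusted over 15 relations) and a Spearman rho of 0.952 (exact permutation p = 0.00114, adjusted 0.00856). Without Eµ-PRMT5 animals 1 and 4, the farthest from the median of Dnmt1, r was 0.964. Without Eµ-PRMT5 animal 4 alone, r was 0.975 (exact permutation p = 0.000794, adjusted 0.0119). The rho was then 0.929 (exact permutation p = 0.00675, adjusted 0.0506), which did not pass adjustment. Uhrf1 had a log2 fold change between double transgenics and Eµ-PRMT5 of 0.56 (standard error 0.62, 95% interval -0.78 to 1.90), not beyond the spread.

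E2F factors drive genes of DNA replication, and forms of their motif were looked for in promoters because Dnmt1, Uhrf1 and Ezh2 were high in the same library. The search was chosen after seeing the data. It used the 8-base forms TTTGGCGC, TTTCCCGC, TTTGCCGC and TTTCGCGC on both strands, in RefSeq windows from 250 bases before to 50 bases after each start (GRCm38.p6). The 10 genes had 14 windows, and 3 of these, in Dnmt1, Ezh2 and Suz12, held a form, as did 744 of 32851 windows of all genes (2.26%). Counted by gene, 704 of 27025 genes held one, as did 6 of the 22 proliferation genes with a window. A match is only a description of the letters, and windows with no match say nothing about binding. In the GENCODE annotation, both Dnmt1 sites and the Ezh2 site fall in annotated exons, and the Suz12 and Uhrf1 sites do not. The Dnmt1 site named as before the start is thus upstream only of the third start. The sites are given as 30 bases on the strand of the gene, 5′ to 3′, with the motif in capitals. They lie at chr9:20952824-20952853 (219 bases before the third start of Dnmt1, motif on the opposite strand), chr9:20952574-20952603 (34 bases after that start), chr6:47595009-47595038 (4 bases after the start of Ezh2), chr11:79992876-79992905 (219 bases before the start of Suz12) and chr17:56304117-56304146 (185 bases before the second start of Uhrf1).
Dnmt1, before the start: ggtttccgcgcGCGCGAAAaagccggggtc
Dnmt1, after the start: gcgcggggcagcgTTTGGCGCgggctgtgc
Ezh2: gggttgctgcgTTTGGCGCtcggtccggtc
Suz12: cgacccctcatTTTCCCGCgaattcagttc
Uhrf1: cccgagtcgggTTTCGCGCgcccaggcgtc

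The de novo methyltransferases varied much less than Dnmt1. Dnmt3a (chr12:3806007-3914443) measured 87.7, 79.6, 76.4 and 125 CPM for Eµ-PRMT5, 76.2, 129 and 98.5 CPM for the double transgenics, and 130.3 CPM for Eµ-TCL1. Its highest value was 1.71 times its lowest, the smallest such ratio of the 10 genes, and the groups overlapped. Dnmt3b (chr2:153649450-153687730) measured 33.3, 22.01, 21.4 and 31.7 CPM for Eµ-PRMT5, 26.6, 40.6 and 35.7 CPM for the double transgenics, and 44.6 CPM for Eµ-TCL1. Both were highest in the Eµ-TCL1 animal, Dnmt3a by little, and the replicated groups overlapped. Between double transgenics and Eµ-PRMT5, the log2 fold change of Dnmt3a was 0.14 (standard error 0.33, 95% interval -0.58 to 0.85). That of Dnmt3b was 0.34 (standard error 0.37, 95% interval -0.46 to 1.13). Relative to the Eµ-TCL1 animal, Eµ-PRMT5 animals differed by -0.50 (standard error 0.47) in Dnmt3a and by -0.72 (standard error 0.52) in Dnmt3b, on the log2 scale. The ratio of Dnmt3a to Dnmt3b per kb stayed between 0.808 and 1.205 in the 8 mice. The ratio of Dnmt1 to Dnmt3a per kb ran from 1.87 in Eµ-PRMT5 animal 1 to 5.98 in Eµ-PRMT5 animal 4.

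Tet1 (chr10:62804570-62908996) had the widest range of the 10 genes. It measured 8.93, 13.3, 44.2 and 15.5 CPM for Eµ-PRMT5, 24.3, 30.7 and 31.04 CPM for the double transgenics, and 80.0 CPM for Eµ-TCL1. The Eµ-TCL1 animal was highest, at 8.96 times the lowest, Eµ-PRMT5 animal 1, and Eµ-PRMT5 animal 3 stood apart from the other 3 of its genotype. These levels came from 44, 84, 194 and 134 counts, from 148, 215 and 202 counts, and from 296 counts. The highest Tet1 levels were in the Eµ-TCL1 animal and Eµ-PRMT5 animal 3, which also had the smallest libraries. With each library thinned to the smallest total, Tet1 was at 81.1 CPM in the Eµ-TCL1 animal and 44.1 CPM in Eµ-PRMT5 animal 3. It was at 9.32 CPM in Eµ-PRMT5 animal 1. Thinning leaves the expected CPM unchanged, so the part of library size in these levels was not tested.

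Tet1 was lower in all 4 Eµ-PRMT5 animals than in the Eµ-TCL1 animal, with a log2 fold change of -1.97 (standard error 0.68, 95% interval -3.45 to -0.49, edgeR adjusted p = 0.709). All 3 double transgenics were lower too, with a log2 fold change of -1.48 (standard error 0.73, 95% interval -3.06 to 0.11, edgeR adjusted p = 0.778). Neither passed after adjustment over all tested genes. Both values share the lone Eµ-TCL1 animal. Without Eµ-PRMT5 animal 3, the value for Eµ-PRMT5 was -2.67 (standard error 0.47, edgeR adjusted p = 0.131, range 0.131 to 0.951 over the alternatives). Between the replicated groups, Tet1 was higher in double transgenics by 0.49 (standard error 0.52, 95% interval -0.63 to 1.61, edgeR adjusted p = 1.00), within the spread. Without Eµ-PRMT5 animal 3, all double transgenics were above the remaining Eµ-PRMT5 animals, by a log2 fold change of 1.19 (standard error 0.37, edgeR adjusted p = 0.769, range 0.769 to 1.00).

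Tet2 (chr3:133463679-133545139), an oxidase often lost in blood cancers, measured 108, 73.6, 92.1 and 58.8 CPM for Eµ-PRMT5, 82.1, 85.8 and 77.9 CPM for the double transgenics, and 46.5 CPM for Eµ-TCL1. The double transgenics lay close together inside the range of Eµ-PRMT5, and the Eµ-TCL1 animal was lowest. With library size as the only scaling, Eµ-PRMT5 animal 4 was lowest instead. The log2 fold change between the replicated groups was -0.02 (standard error 0.32, 95% interval -0.72 to 0.68), and its sign turned with upper-quartile scaling. Relative to the Eµ-TCL1 animal, Tet2 differed by 0.84 (standard error 0.50) in Eµ-PRMT5 and by 0.82 (standard error 0.51) in double transgenics, neither past the test.

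Tet3 (chr6:83362373-83459084) measured 60.1, 44.96, 38.5 and 40.01 CPM for Eµ-PRMT5, 63.3, 67.6 and 34.9 CPM for the double transgenics, and 29.2 CPM for Eµ-TCL1. Double transgenic 3 was below every Eµ-PRMT5 animal and double transgenics 1 and 2 above, so the genotypes overlapped. Between them, Tet3 differed by 0.27 on the log2 scale (standard error 0.36, 95% interval -0.51 to 1.05), and by 0.0972 to 0.51 with mice left out in turn. Per kb, Tet2 was between 1.26 and 2.37 times Tet3 in the 8 mice. The ratio of Tet2 to Tet1 per kb ran from 0.532 in the Eµ-TCL1 animal, the only one with more Tet1 than Tet2, to 11.1 in Eµ-PRMT5 animal 1.

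**Figure D3:**
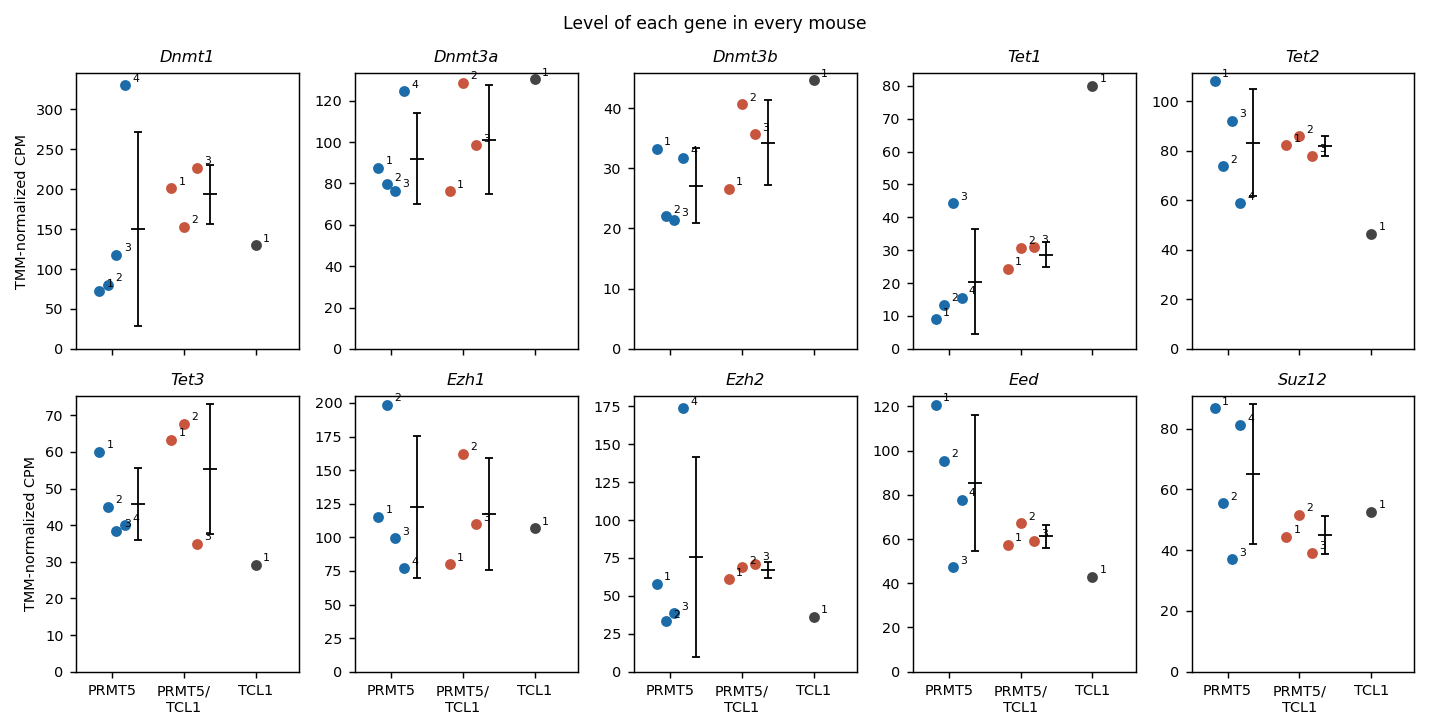
TMM-normalized CPM of the 10 genes in each of the 8 mice, with 1 panel and a linear axis from 0 for each gene; numbers beside points are mouse numbers, and black bars show the mean ± SD of the 4 Eµ-PRMT5 and 3 Eµ-PRMT5/TCL1 mice. Eµ-PRMT5 animal 4 stands above the others in Dnmt1 (330.3 CPM) and Ezh2 (174 CPM), and the Eµ-TCL1 animal in Tet1 (80.0 CPM).

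Ezh2 (chr6:47530139-47595341), the main catalytic subunit of PRC2 in dividing cells, measured 57.8, 33.1, 38.5 and 174 CPM for Eµ-PRMT5, 60.8, 68.9 and 71.0 CPM for the double transgenics, and 36.2 CPM for Eµ-TCL1. As for Dnmt1, Eµ-PRMT5 animal 4 was highest, at 4.02 times the mean of the other 3 of its genotype, and those 3 lay below all double transgenics. Means were 75.7 ± 66.0 CPM (SD, n = 4) for Eµ-PRMT5 and 66.9 ± 5.37 CPM (SD, n = 3) for the double transgenics. The log2 fold change of double transgenics over Eµ-PRMT5 was -0.18 (standard error 0.53, 95% interval -1.32 to 0.96, edgeR adjusted p = 1.00). Without Eµ-PRMT5 animal 4 its sign turned, to 0.63 (standard error 0.34, edgeR adjusted p = 0.867, range 0.808 to 1.00 over the alternatives). Relative to the Eµ-TCL1 animal, Ezh2 differed by 1.07 (standard error 0.83) in Eµ-PRMT5, and by 0.25 (standard error 0.49) without animal 4. Among the 4 Eµ-PRMT5 animals, log2 CPM of Ezh2 had an SD of 1.07, larger than for 81.8% of tested genes. It was 0.99 for Dnmt1 (77.6%) and 0.97 for Tet1 (75.9%), against 0.29 to 0.58 for the other 7 genes.

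Ezh1 (chr11:101191115-101226463), the alternative catalytic subunit, measured 115, 199, 99.4 and 77.0 CPM for Eµ-PRMT5, 80.0, 162 and 109.6 CPM for the double transgenics, and 107 CPM for Eµ-TCL1. It was lowest in Eµ-PRMT5 animal 4, where Ezh2 was highest, and highest in Eµ-PRMT5 animal 2, where Ezh2 was lowest. Between the replicated groups, Ezh1 differed by -0.06 on the log2 scale (standard error 0.40, 95% interval -0.92 to 0.80). The ratio of Ezh2 to Ezh1 per kb was 0.559, 0.186, 0.432 and 2.51 for Eµ-PRMT5, 0.847, 0.473 and 0.722 for the double transgenics and 0.378 for Eµ-TCL1. Ezh2 exceeded Ezh1 in Eµ-PRMT5 animal 4 alone. Across the 8 mice, their log2 levels had a Pearson r of -0.512 (exact permutation p = 0.194, adjusted 0.485) and a rho of -0.429 (exact permutation p = 0.299, adjusted 0.748). Without Eµ-PRMT5 animal 2 and double transgenic 2, r was -0.608. Without Eµ-PRMT5 animal 4 it was -0.237 (exact permutation p = 0.586, adjusted 0.976), with a rho of -0.143 (exact permutation p = 0.783, adjusted 0.963).

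Eed (chr7:89954654-89980983), the subunit that binds trimethylated lysine 27, measured 121, 95.5, 47.2 and 77.8 CPM for Eµ-PRMT5, 57.4, 67.1 and 59.2 CPM for the double transgenics, and 43.0 CPM for Eµ-TCL1. The Eµ-TCL1 animal was lowest, and 3 of 4 Eµ-PRMT5 animals were above the double transgenics. Suz12 (chr11:79993106-80034123), which holds the complex together, measured 86.7, 55.4, 36.9 and 81.1 CPM for Eµ-PRMT5, 44.4, 51.6 and 39.2 CPM for the double transgenics, and 52.7 CPM for Eµ-TCL1. For both genes, Eµ-PRMT5 animal 3 lay below every double transgenic and the other 3 of its genotype above, so the groups overlapped. The log2 fold change of double transgenics over Eµ-PRMT5 was -0.48 (standard error 0.36, 95% interval -1.27 to 0.31) for Eed. It was -0.53 (standard error 0.37, 95% interval -1.34 to 0.28) for Suz12. Neither was beyond the spread. With mice left out in turn, the values ranged from -0.68 to -0.25 for Eed and from -0.72 to -0.35 for Suz12, each lowest without Eµ-PRMT5 animal 3. Relative to the Eµ-TCL1 animal, Eed differed by 0.99 (standard error 0.57) in Eµ-PRMT5, and Suz12 by 0.30 (standard error 0.55).

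Relations among PRC2 subunits were read across the 8 mice. Suz12 with Eed had a Pearson r of 0.740 (exact permutation p = 0.0359, 0.133 adjusted over 15 relations) and a rho of 0.714 (exact permutation p = 0.0576, adjusted 0.216). Without Eµ-PRMT5 animals 1 and 4, r was 0.466, while without animal 4 alone it was 0.781 and without animals 1 and 2 it was 0.610. Ezh2 with Suz12 had an r of 0.446 (exact permutation p = 0.270, adjusted 0.580), a rho of -0.0476 (exact permutation p = 0.935, adjusted 0.935) and an r of 0.102 without Eµ-PRMT5 animals 2 and 4. Ezh2 with Eed had an r of 0.218 (exact permutation p = 0.611, adjusted 0.834), a rho of 0.143 (exact permutation p = 0.752, adjusted 0.915) and an r of 0.526 without the same animals. The ratio of Suz12 to Eed per kb lay between 0.449 and 0.949. That of Ezh2 to Eed ran from 0.199 in Eµ-PRMT5 animal 2 to 1.28 in Eµ-PRMT5 animal 4.

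Dnmt1 and Ezh2 followed the proliferation score, the mean log2 CPM of 26 proliferation genes that include neither these genes nor Uhrf1. The score was 5.15, 4.72, 5.95 and 8.35 for Eµ-PRMT5, 7.03, 6.18 and 7.10 for the double transgenics and 5.597 for Eµ-TCL1. Eµ-PRMT5 animal 4 was highest and the other 3 of its genotype lay below all double transgenics. Dnmt1 had a Pearson r with the score of 0.971 (exact permutation p = 0.000223, adjusted 0.00167) and a rho of 0.952 (exact permutation p = 0.00114, adjusted 0.00856). Without Eµ-PRMT5 animals 2 and 4, the farthest from the median score, r was 0.950. Over the 7 mice without Eµ-PRMT5 animal 4, an alternative chosen after seeing the data, r was 0.955 (exact permutation p = 0.00377, adjusted 0.0283) and rho 0.929 (exact permutation p = 0.00675, adjusted 0.0506). Ezh2 had an r of 0.861 (exact permutation p = 0.00714, adjusted 0.0357) and a rho of 0.905 (exact permutation p = 0.00456, adjusted 0.0228). Its r was 0.523 without Eµ-PRMT5 animals 2 and 4, and 0.687 without animal 4 alone (exact permutation p = 0.107, adjusted 0.320), so its r rested on those animals. The rank relation moved less, to a rho of 0.857 without animal 4 (exact permutation p = 0.0238, adjusted 0.119), which did not pass adjustment over the 15 relations.

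The other genes had no relation with the score that passed adjustment. Ezh1 had an r of -0.720 (exact permutation p = 0.0444, adjusted 0.133) and a rho of -0.667 (exact permutation p = 0.0831, adjusted 0.249), with r = -0.313 without Eµ-PRMT5 animals 2 and 4. The r was 0.317 for Dnmt3a, 0.155 for Dnmt3b, 0.0482 for Tet1, -0.247 for Tet2, -0.0839 for Tet3, -0.244 for Eed and 0.00259 for Suz12. Their exact permutation p-values lay between 0.443 and 0.995, and their rho values between -0.310 for Suz12 and 0.214 for Tet1 (exact permutation p from 0.462 to 0.935). Eµ-PRMT5 animal 4 set these values for some genes. Without it, r was -0.647 for Suz12 (exact permutation p = 0.106, adjusted 0.320) and -0.530 for Eed (exact permutation p = 0.220, adjusted 0.472), and without animals 2 and 4 it was -0.714 and -0.365. Eµ-PRMT5 animal 4, with the highest score, also had the largest library, the lowest B cell marker sum and the highest erythroid marker sum. Its neutrophil lineage sum (5219 CPM) was the highest of its genotype. With NA counted as 0, its sum over all 6 macrophage markers (876 CPM) was the highest of the 8 mice. The part of library size and of these other cells in the relations was not tested.

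**Figure D4:**
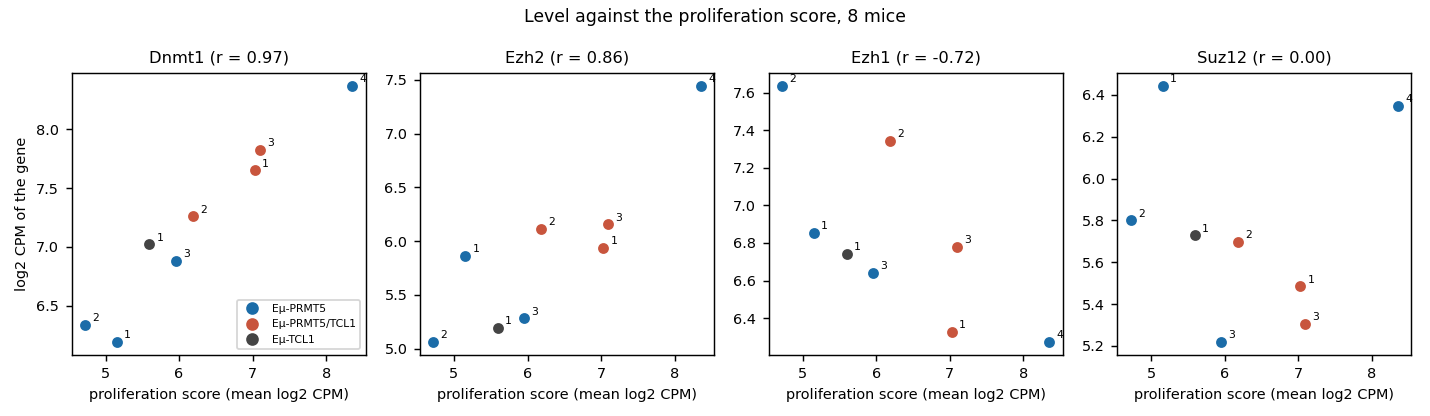
Log2 CPM (prior count 2) of Dnmt1, Ezh2, Ezh1 and Suz12 against the proliferation score, the mean log2 CPM of 26 genes, with 1 point for each of the 8 mice. Dnmt1 rises with the score along the whole range (r = 0.971), while r for Ezh2 (0.861) is 0.687 without Eµ-PRMT5 animal 4, with a rho of 0.857.

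No gene of the set passed the test in any comparison. Between double transgenics and Eµ-PRMT5, edgeR called 0 of the 10 genes and 0 of 13173 tested genes (0%) at an adjusted p under 0.05. At an unadjusted p under 0.05 it found 0 of the 10 and 286 tested genes (2.17%), and DESeq2 called 4 tested genes and none of the 10. Log2 fold changes were positive for 5 genes and negative for 5, although Tet2, among the negative ones, turned positive with upper-quartile scaling. Their median was 0.06, against -0.09 over all tested genes. Standard errors from 0.32 to 0.53 bound what 4 and 3 mice could show. The groups did not overlap for 0 of the 10 genes and for 388 tested genes (2.95%). Without Eµ-PRMT5 animal 4 they were apart for 2 of the 10, Dnmt1 and Ezh2, and for 1416 tested genes (10.7%). With the other mice left out in turn, also chosen after seeing the data, they were apart for 3 of the 10, Tet1, Eed and Suz12, and for 1742 genes (13.2%) without Eµ-PRMT5 animal 3. They were apart for 1 of the 10, Dnmt3b, and for 891 genes (6.76%) without double transgenic 1, and for 1 of the 10, Tet3, and 1179 genes (8.95%) without double transgenic 3. For 0 of the 10 they were apart without Eµ-PRMT5 animal 1 (697 genes, 5.29%) or 2 (647 genes, 4.91%) and without double transgenic 2 (789 genes, 5.99%). At an unadjusted p under 0.05 and without Eµ-PRMT5 animal 4, edgeR found 1 of the 10, Dnmt1, and 760 of 13156 genes (5.78%). Without Eµ-PRMT5 animal 3 it found 1 of the 10, Tet1, and 771 of 13101 genes (5.89%).

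Against the Eµ-TCL1 animal, Eµ-PRMT5 had 7 genes positive and 3 negative. Dnmt1 and Ezh1, among the positive ones, turned negative with library size as the only scaling. The median log2 fold change was 0.26, against 0.04 over all tested genes, a median that moved to -0.21 with library size only. EdgeR called 0 of the 10 and 0 of 13173 genes (0%) at an adjusted p under 0.05, and DESeq2 called 18 genes and none of the 10. At an unadjusted p under 0.05, edgeR found 1 of the 10, Tet1, and 893 genes (6.78%), and DESeq2 also found 1 of the 10, Tet1. Tet1 stayed under this unadjusted threshold in every alternative run for this comparison. With NA counted as 0, edgeR found 2 of the 10, Tet1 and Tet2, and 899 of 19814 genes at this threshold. Without Eµ-PRMT5 animal 3, edgeR found 2 of the 10, Tet1 and Eed, and 2119 of 13101 genes (16.2%).

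The double transgenics had 6 genes positive and 4 negative against the same Eµ-TCL1 animal, with Ezh1 turning negative with library size only. The largest log2 fold changes after Tet1 were 0.92 for Tet3 (standard error 0.58), 0.88 for Ezh2 (standard error 0.84) and 0.82 for Tet2. The median was 0.32, against -0.07 over all tested genes, a median that moved to -0.30 with library size only. EdgeR called 0 of the 10 and 0 of 13173 genes (0%), and at an unadjusted p under 0.05 it found 0 of the 10 and 802 genes (6.09%). DESeq2 called 16 genes and none of the 10. With only the 2 groups in the fit, edgeR found 3 of the 10, Ezh2, Tet1 and Tet2, at an unadjusted p under 0.05, and 2359 of 13024 genes (18.1%), with 0 called. Without Eµ-PRMT5 animal 3, which enters here only through the shared spread, edgeR found 1 of the 10, Tet1, at an unadjusted p under 0.05, and 1217 of 13101 genes (9.29%). The Eµ-TCL1 animal was the highest of the 8 mice for 3 of the 10 genes, Dnmt3a, Dnmt3b and Tet1, and for 21.3% of tested genes. It was lowest for 3, Tet2, Tet3 and Eed, and for 14.2% of tested genes, with Tet2 leaving this group under library size only. Eµ-PRMT5 animal 4 was highest for 2, Dnmt1 and Ezh2, and for 20.1% of tested genes.

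**Figure D5:**
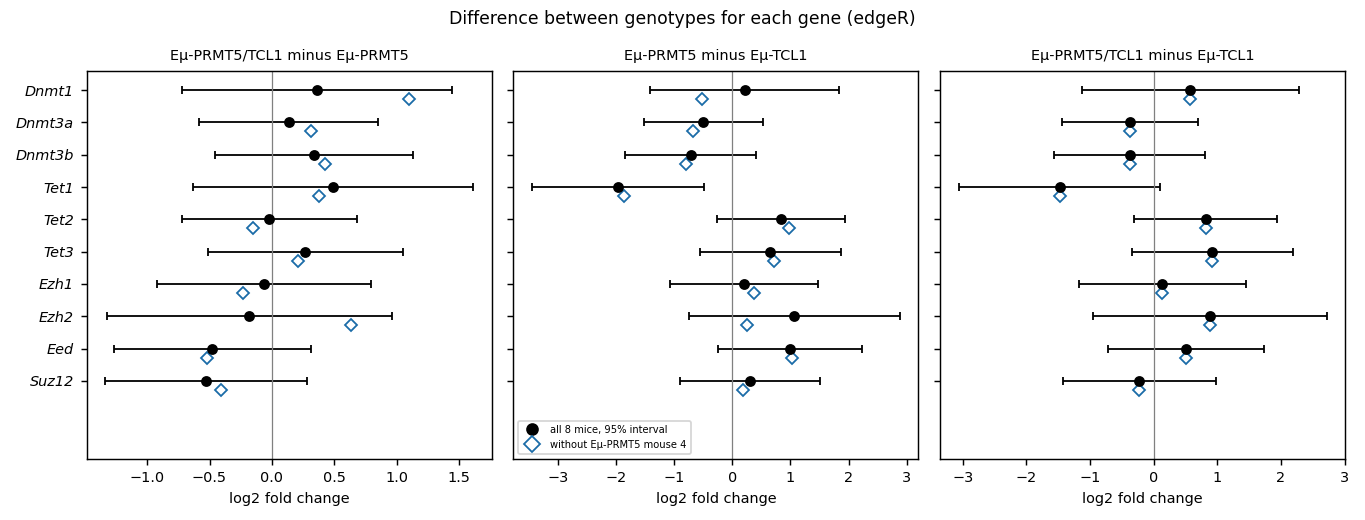
Log2 fold changes of the 10 genes in the 3 comparisons with their 95% intervals from edgeR (horizontal axis, log2), 1 panel for each comparison; black points use all 8 mice, open diamonds leave out Eµ-PRMT5 animal 4, and the grey line marks 0. The interval of Tet1 (-3.45 to -0.49) in Eµ-PRMT5 against the Eµ-TCL1 animal is the only one that leaves out 0 in the fit with all 8 mice.

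Genes that work with the set were read from 7 lists of 110 genes, of which 96 were tested. Over these lists, edgeR and DESeq2 each called 0 genes in any comparison. At an unadjusted p under 0.05, edgeR found 1 gene between double transgenics and Eµ-PRMT5, 2 between Eµ-PRMT5 and the Eµ-TCL1 animal and 5 between double transgenics and that animal, out of 96 each time, beside 2.17%, 6.78% and 6.09% of all tested genes. DESeq2 found 3, 6 and 6, beside 394, 1126 and 930 of 13173 genes. All counts and medians that follow are for double transgenics over Eµ-PRMT5 unless stated, where the median log2 fold change of all tested genes was -0.09.

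Among partners and readers of DNA methylation, 17 of 18 were tested, with 4 positive and 13 negative, and the median was -0.29. With each mouse left out in turn, chosen after seeing the data for all lists, this median ranged from -0.34 to 0.0316. The most abundant per kb was Mbd3, a subunit of the NuRD complex, with a log2 fold change of 0.15 (standard error 0.45). Of 10 PRC2 accessory subunits 8 were tested, with 1 positive and 7 negative and a median of -0.12 (-0.29 to 0.0280 with mice left out), and Epop and Ezhip were not among the symbols. Rbbp7, a histone-binding subunit, measured 588, 564, 294 and 885 CPM for Eµ-PRMT5, 379, 456 and 446 CPM for the double transgenics and 277 CPM for Eµ-TCL1. It was highest in Eµ-PRMT5 animal 4 and overlapped between the groups, with a log2 fold change of -0.45 (standard error 0.40). Its homolog Rbbp4 differed by -0.01 (standard error 0.39).

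Of 24 PRC1 subunits, which make up the partner complex that ubiquitinates histone H2A, 21 were tested, with 10 positive and 11 negative and a median of -0.03 (-0.24 to 0.0496 with mice left out). Bmi1, a core PRC1 subunit, measured 51.1, 64.9, 15.05 and 52.0 CPM for Eµ-PRMT5, 16.1, 19.9 and 25.4 CPM for the double transgenics and 16.8 CPM for Eµ-TCL1. Eµ-PRMT5 animals 1, 2 and 4 were high and animal 3 was the lowest of the 8 mice. Its log2 fold change was -1.16 (standard error 0.49, edgeR adjusted p = 1.00), the only one of the 96 at an unadjusted p under 0.05 in this comparison. It did not stay under this threshold without Eµ-PRMT5 animal 1, 2 or 4, nor without double transgenic 1 or 2, and its value ranged from -1.45 to -0.95 with mice left out, a check chosen after seeing the data. The 6 erasers of the Polycomb marks were all negative with all 8 mice, with a median of -0.23 (-0.37 to -0.0477 with mice left out). Without Eµ-PRMT5 animal 1, 3 were positive and 3 negative, and without double transgenic 3, 2 were positive and 4 negative. Kdm6a, a demethylase of lysine 27, measured 68.0, 67.3, 27.1 and 70.6 CPM for Eµ-PRMT5, 42.6, 85.9 and 37.2 CPM for the double transgenics and 33.0 CPM for Eµ-TCL1. Eµ-PRMT5 animal 3 was again the lowest of the 8, and the log2 fold change was -0.08 (standard error 0.43). Kdm6b, the other demethylase, differed by -0.39 (standard error 0.65), and Bap1, a deubiquitinase of histone H2A and the most abundant per kb, by -0.15 (standard error 0.31).

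The 13 genes of methyl donor and 2-oxoglutarate metabolism, which supply the substrates of these enzymes, had 3 positive and 10 negative and a median of -0.08 (-0.35 to -0.13 with mice left out). Mat2b, a regulatory subunit of methionine adenosyltransferase and the most abundant per kb, differed by -0.43 (standard error 0.40). Of 13 known Polycomb target genes 5 were tested, with 1 positive and 4 negative and a median of -0.50 (-0.78 to -0.15 with mice left out), and Cdkn1a differed by -0.22 (standard error 0.93). The 26 proliferation genes had 8 positive and 18 negative and a median of -0.04 (-0.35 to 1.46 with mice left out). The sign turned without double transgenic 2, with 19 positive and 7 negative and a median of 0.18, and without Eµ-PRMT5 animal 4. Without that animal, 21 of the 26 were higher in double transgenics at an unadjusted p under 0.05, and their median was 1.46. Over all tested genes 392 were then higher and 368 lower. Mki67, the classic marker of cycling cells, measured 74.3, 27.9, 98.3 and 806 CPM for Eµ-PRMT5, 206, 124 and 404 CPM for the double transgenics and 129.5 CPM for Eµ-TCL1. Eµ-PRMT5 animal 4 was far above all others, and the other 3 of its genotype were the lowest of the 8. Mki67 differed by -0.04 (standard error 0.89), and Mcm6, the most abundant of the list per kb, differed by -0.08 (standard error 0.51).

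Against the Eµ-TCL1 animal, 24 of 26 proliferation genes were positive in Eµ-PRMT5 (median 1.38) and 24 of 26 in double transgenics (median 1.27), comparisons that share that animal. The value for Eµ-PRMT5 rested on animal 4, without which 10 were positive and 16 negative, with a median of -0.27. Eµ-PRMT5 animals 1 and 2 had a lower score than the Eµ-TCL1 animal, and animal 3 a slightly higher one. For double transgenics the median stayed between 1.06 and 1.42 with each mouse of the replicated groups left out in turn. Eµ-PRMT5 animals enter that comparison only through the scaling and the shared spread. As for the ranges that follow, the lone Eµ-TCL1 animal was never left out, so the part of that animal was not tested. For the erasers the medians were 0.52 in Eµ-PRMT5 (0.39 to 0.66 with mice left out) and 0.20 in double transgenics (0.00611 to 0.32). For the PRC2 accessory subunits they were 0.26 (0.17 to 0.41) and 0.29 (0.15 to 0.41), and for partners and readers of DNA methylation 0.14 (-0.0229 to 0.22) and -0.13 (-0.16 to -0.00917). They were 0.02 (-0.18 to 0.15) and 0.03 (-0.28 to 0.15) for PRC1 subunits, -0.03 (-0.36 to 0.18) and -0.07 (-0.17 to 0.22) for methyl donor and 2-oxoglutarate genes, and 0.57 (-0.12 to 0.83) and -0.19 (-0.90 to -0.0667) for Polycomb targets. The sign of 4 of the 6 lists thus turned with 1 mouse left out in Eµ-PRMT5, and that of 2 in double transgenics. Genes of the lists at an unadjusted p under 0.05 against this animal are named here after their values were seen. Prdm1, the Polycomb target that drives plasma cell differentiation, measured 95.2, 39.4, 64.1 and 38.9 CPM for Eµ-PRMT5, 29.5, 49.5 and 47.2 CPM for the double transgenics and 209.8 CPM for Eµ-TCL1. It was highest in the Eµ-TCL1 animal, with log2 fold changes of -1.82 (standard error 0.52) for Eµ-PRMT5 and -2.32 (standard error 0.54) for double transgenics. The PRC1 subunit Scmh1 differed by -1.42 (standard error 0.54) in Eµ-PRMT5. E2f1 differed by 2.28 (standard error 0.94), and the replication genes Mcm2 and Mcm3 by 2.80 (standard error 1.18) and 2.79 (standard error 1.27), in double transgenics.

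The tested genes whose log2 CPM was most like that of each gene over the 8 mice were also listed, as a description. For Dnmt1 they were Cenpn (Pearson r = 0.985), Aurkb and Ncapg2, genes of chromosome segregation and condensation, and 139 genes had an r over 0.9. For Ezh2 they were Nup37 (0.975), Pcgf5 and Ndufb9, with 92 genes over 0.9. Tet1 had the most, 314 genes over 0.9, led by Pnpla3 (0.981), Acvr2b and Car14. Eed had 86, led by Naa15 (0.984), Nop14 and Bclaf1, and Suz12 had 52, led by Tprkb (0.954), Polr2i and Cnot6. Ezh1 had 15, led by Kdm1b (0.988), Abcf3 and Vkorc1l1. The rest had few. Tet3 had 11, led by Sin3b (0.954), Tcn2 and Triap1, and Tet2 had 9, led by Gm3488 (0.965), Myl12b and Pdcd4. Dnmt3b had 8, led by Atp13a2 (0.941), Stx18 and Dram2, and Dnmt3a had 2, Scly (0.926) and Prickle1, followed by Acly.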

How the data were processed

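The values the authors deposited are unnormalized counts of reads on genes, and they were used as they stand. The submitters' processing notes name GRCm38, featureCounts of Subread and DESeq2 1.20.0. The aligner and the use of strand are not given in the sources used here, and the labels name a library kit that differs from the one in the methods. Exons overlap an antisense gene over 6.82% of Eed, 3.60% of Suz12, 2.61% of Ezh2, 0.799% of Dnmt3a and 0.255% of Tet2, so their reads and those of the antisense genes cannot be told apart.

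The matrix holds 36919 cells with NA, whose meaning is not stated. Of the symbols, 14072 lacked no value and were used, and filterByExpr by group left 13173. EdgeR 4.0.16 in R 4.3.3 fitted 1 quasi-likelihood model over the 3 genotypes with TMM factors and Benjamini-Hochberg adjustment over all tested genes (biological coefficient of variation 0.483). Python 3.11.15, numpy 2.4.6, pandas 2.3.3 and scipy 1.17.1 were used. Correlations used log2 CPM with a prior count of 2 and two-sided exact permutation over 40320 pairings. They pooled the 3 genotypes without a covariate, so their p-values treat the mice as exchangeable. Merged exon lengths and positions are from GENCODE vM21 (GRCm38), which matched 98.3% of tested genes by symbol. The code was tested on simulated data first.

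The 10 genes and the lists were chosen with earlier results of these data known. Named from the 7 lists were genes at an unadjusted p under 0.05 between double transgenics and Eµ-PRMT5, at most 6 a list by smallest p, or else the most abundant per kb. Uhrf1, Rbbp4, Rbbp7, Kdm6a, Kdm6b and Mki67 were named in any case. A result that the text would otherwise name is not reported here. For likeness, the 3 tested genes with the highest Pearson r were named for each of the 10. The markers were those of B cells, T cells, macrophages, the neutrophil lineage, erythroid cells, NK cells and plasma cells.

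Alternatives were DESeq2 1.42.0, library size only, upper-quartile scaling, a minimum of 10 counts in every library, no filter, only the 2 groups compared, NA counted as 0, a fold change over 4, thinning to the smallest library, a prior count of 0.5, each mouse of the replicated groups left out, and the replicate number as a block. Chosen after seeing the data were the correlations without Eµ-PRMT5 replicate 4 and the counts without Eµ-PRMT5 replicates 3 and 4. So were the sums over markers with a value in each library, the 45 pairs of genes and the promoter motif. So were the counts with only the 2 groups compared or with NA counted as 0. Also chosen then were the overlap, the list medians and the values of Bmi1 with mice left out.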

Additional observations from a re-analysis of the deposited data

Results flagged for a closer look

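In 24 groups of 4 Eµ-PRMT5 values, 1 mouse was looked for whose distance to its nearest neighbour made up more of the range than Dixon's 95% critical value. It was found 3 times, where chance finds about 1 in 20 for normally distributed values. All readings but the proliferation score were on the CPM scale and not as log2, so this rate may not hold for them. The proliferation score, on the log2 scale, had its gap in Eµ-PRMT5 animal 4 at 0.661 of the range, under the critical value. The other readings were not tested on the log2 scale. The groups are readings of the same 4 mice and are not independent. Uhrf1 was at 353 CPM in Eµ-PRMT5 animal 4, with the other 3 between 50.03 and 96.7 CPM. Mki67 was at 806 CPM in the same animal, with the others between 27.9 and 98.3 CPM. Eµ-PRMT5 animal 3 had Kdm6a at 27.1 CPM, with the others between 67.3 and 70.6 CPM. Dnmt1 (0.826), Ezh2 (0.824) and the erythroid markers (0.824) in Eµ-PRMT5 animal 4 and Tet1 (0.815) in Eµ-PRMT5 animal 3 came just under the critical value. Marker sums used the markers with a value in all 8 libraries, chosen after seeing the data. With all markers and NA counted as 0, the erythroid markers (0.836) and the T cell markers (0.838) passed it too, which made 5. The cause was not tested.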

How the results depend on the processing

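Of the log2 fold changes of the 10 genes under the alternatives, 148 of 160 kept their direction and their side of the threshold between double transgenics and Eµ-PRMT5, 136 of 140 between Eµ-PRMT5 and the Eµ-TCL1 animal, and 137 of 140 between double transgenics and that animal. EdgeR called 0 genes in each comparison under all alternatives, while DESeq2 called 4, 18 and 16, a difference between the tools whose cause was not tested. For double transgenics over Eµ-PRMT5, Tet2 turned to 0.0369 with upper-quartile scaling, to 0.0051 with at least 10 counts in every library and to 0.0138 with NA counted as 0, and the cause was not tested. Ezh2 was 0.67 with the replicate block over mice 1 to 3 and 0.63 over the same mice without the block, both without Eµ-PRMT5 animal 4. With mice left out in turn, values ranged from -0.0756 to 0.32 for Dnmt3a, -0.16 to 0.15 for Tet2, -0.37 to 0.27 for Ezh1 and -0.43 to 0.63 for Ezh2. For Eµ-PRMT5 over Eµ-TCL1, library size only gave -0.0891 for Dnmt1 and -0.0388 for Ezh1, and mice left out in turn gave -0.52 to 0.57 for Dnmt1 and -0.14 to 0.37 for Ezh1. For double transgenics over Eµ-TCL1, Ezh1 was -0.0934 with library size only and -0.17 to 0.35 with mice left out, and Suz12 was 0.0640 with NA counted as 0. Library size only uses no factor for composition, which moves all genes of a library together. Of the correlations, 39 of 45 kept their direction and side. Library size only gave -0.235 for Suz12 with the score and -0.153 for Eed with Ezh2, and leaving out Eµ-PRMT5 animal 4 gave 0.0491 for Tet2, 0.0526 for Tet3, -0.647 for Suz12 and 0.687 for Ezh2 with the score. The numbers in the labels do not pair the mice, and the replicate block called 0 genes. Counting error was largest for Tet1, with 44 counts in its lowest library.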

Other observations

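Among all 45 pairs of the 10 genes, looked at after seeing the data, Tet1 and Eed were the only pair whose correlation passed adjustment by Pearson r (r = -0.953, exact permutation p = 0.000422, 0.0190 adjusted over 45 pairs). The Spearman rho was -0.929 (exact permutation p = 0.00223, adjusted 0.100). Without Eµ-PRMT5 animal 1 and the Eµ-TCL1 animal, r was -0.920, and with library size as the only scaling it was -0.874. Tet1 was highest and Eed lowest in the Eµ-TCL1 animal and Eµ-PRMT5 animal 3, which had the smallest libraries. With each library thinned to the smallest total, Eed was at 43.6 CPM in the Eµ-TCL1 animal, 43.8 CPM in Eµ-PRMT5 animal 3 and 123 CPM in Eµ-PRMT5 animal 1. Thinning leaves the expected CPM unchanged, so the part of library size in this relation was not tested, nor was that of library quality.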
